A study of Mus musculus with 28 samples.

Results

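WT plasma cells were compared with WT CD11c+ age-associated B cells (ABC) by bulk RNA sequencing of cells sorted from the spleen. The comparison took every library labelled WT and B220- CD138+ long-lived plasma cell (LLPC), which gave 6, and every library labelled WT and CD11c+ age-associated B cell, which gave 4, so that 10 of the 28 libraries of the series entered it. The series compares sorted splenic B cell subsets of female mice with an intact or a conditionally deleted Xist gene (WT and Xist cKO), Xist being the noncoding RNA that coats the inactive X chromosome. All WT animals carried the label low dsDNA, and the series' design counts them as healthy. The 3 LLPC and 3 ABC libraries of cKO animals labelled high dsDNA (cKO high) served as a second set of animals for the same subset contrast, and 6 CD23+ B cell libraries of WT animals as a reference level. Genotype and disease label change together between WT and cKO high. The animal was read from a number that recurs across the tables of different subsets. On that reading 4 animals gave both WT subsets, 2 gave WT LLPC alone, and 3 gave both cKO high subsets. Age, strain and the driver of the deletion were not given in the sources used here, and the name long-lived rests on the surface gate alone.

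Plasma cells are the antibody-secreting end stage of the B cell lineage. They carry CD138, lose the B cell form of CD45 known as B220, and are known to devote much of their transcription to immunoglobulin genes. Age-associated B cells are mature, antigen-experienced B cells that carry the integrin CD11c, accumulate with age and in lupus, and are known to be able to turn into antibody-secreting cells.

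The deposited tables list 40303 feature IDs without gene names, and 0 of these IDs were found in the mouse gene tables used here. Features are therefore described by level, rank and behaviour, with at most 2 risen and 2 fallen ones given by ID. No sequence, position or function can be given, the 12 planned gene lists and the marker genes of plasma cells, ABC and other cell types could not be used, and neither the sorted identities nor the Xist deletion was checked against its genes. Whether other cell types were carried along in the sort was not tested. In bulk libraries, fewer cells of a type and less RNA per cell cannot be told apart.

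Totals ran from 4651060 to 10599602 counts in WT LLPC and from 4963298 to 9990545 in WT ABC. The LLPC libraries varied more. The biological coefficient of variation, which is the replicate spread left after counting noise, was 0.328 in WT LLPC and 0.219 in WT ABC, and the SD of log2 levels over libraries was larger in LLPC for 9160 of 12470 features (73.5%). LLPC replicate 6 stood apart: its median Spearman rho across features with the other LLPC libraries was 0.885, against 0.943 to 0.963 for the other 5, and it lay furthest out on the second principal component, which held 15.3% of the variance. The first component, with 65.5%, separated all 6 LLPC from all 4 ABC libraries. Median rho was 0.95 over the 15 pairs within LLPC, 0.98 over the 6 pairs within ABC and 0.82 over the 24 pairs between the subsets. These correlations are across features, which are not independent replicates.

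Plasma cell RNA was concentrated on far fewer features than ABC RNA. The 10 most abundant features of each library took 40.5%, 48.0%, 44.4%, 50.2%, 48.3% and 27.4% of the counts in LLPC replicates 1 to 6, and 12.6%, 13%, 16.4% and 18.4% in ABC replicates 1 to 4. The groups did not overlap, and the lowest LLPC value was that of replicate 6. The means were 43.1% ± 8.43 (SD, n = 6) and 15.1% ± 2.79 (SD, n = 4), a difference of 28.01 percentage points (exact two-sided permutation test, p = 0.00952, 0.0190 after Benjamini-Hochberg adjustment over 2 composition measures). That p is the smallest that the 210 splits of these libraries allow. The tests of both composition measures took the libraries as independent. They left out that 4 animals gave both subsets, and no paired version was run. Without LLPC replicate 6 the difference was 31.2 points (exact permutation test, p = 0.0159). A single feature took 16.7% of LLPC counts on average against 8.38% of ABC counts. As few as 10 features made up 50% of the counts in LLPC replicate 4, and 370 did so in replicate 6, against 587 to 721 in the ABC libraries.

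**Figure D1:**
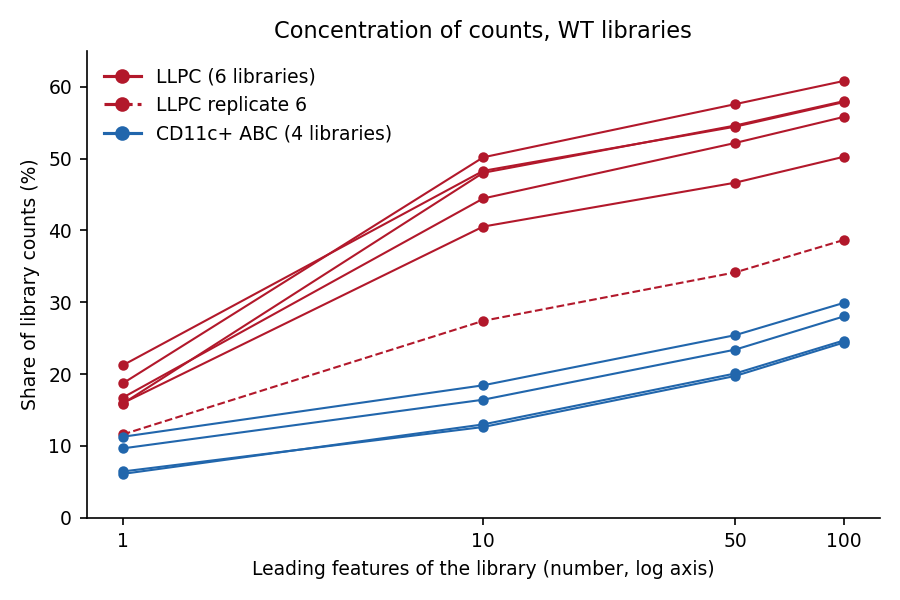
Share of library counts (%) taken by the 1, 10, 50 and 100 most abundant features of each library (log axis), with 1 line per WT library, LLPC in red and ABC in blue. At 10 features the LLPC lines lie between 27.4% and 50.2% and the ABC lines between 12.6% and 18.4%, and the dashed line of LLPC replicate 6 is the lowest of its group.

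Leading features recurred within each subset. Of 17 features that were among the 10 leading ones of any LLPC library, 7 were so in all 6, and of 16 in ABC, 6 were so in all 4. Only 2 features were among the 10 leading ones in all 10 libraries. Each library was also thinned to 2000000 counts. The number of features with at least 1 count then averaged 14481 (SD 500) in LLPC and 14899 (SD 138) in ABC. The difference of -417.7 was not significant (p = 0.171 in a two-sided exact permutation test, and again 0.171 when adjusted). It reached -561.9 without LLPC replicate 6 (p = 0.0317) and -710.9 for features with at least 5 counts (p = 0.00952), both by the same exact permutation test. The share of the leading features moved with this difference across the subsets, and its part was not tested.

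Many of the tested features differed between the subsets, in about equal numbers in each direction. Levels are given as CPM, the count of a feature relative to the total of its library, scaled by the TMM method, which centres the libraries on the bulk of their features, so a change is relative to that bulk. edgeR's quasi-likelihood test over 12470 features called 5880 (47.2%) at a Benjamini-Hochberg adjusted p under 0.05, of which 3016 (24.2%) were higher and 2864 (22.97%) lower in LLPC. At least 2-fold were 1951 of the higher (15.6% of those tested) and 1637 of the lower (13.1%). On plain library totals the median log2 fold change over all features moved from 0.03 to -0.63, and the split became 1333 higher and 5928 lower, which is 18.4% higher among the called against 51.3% with TMM. With the animal as a block 4472 were called, 2309 higher and 2163 lower, and 4384 of these were called with the same sign without it. Without LLPC replicate 6 the count was 6184, and without both libraries of the animal that gave LLPC replicate 6 and ABC replicate 4, whose number lies in a series apart from the others, it was 5897.

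**Figure D2:**
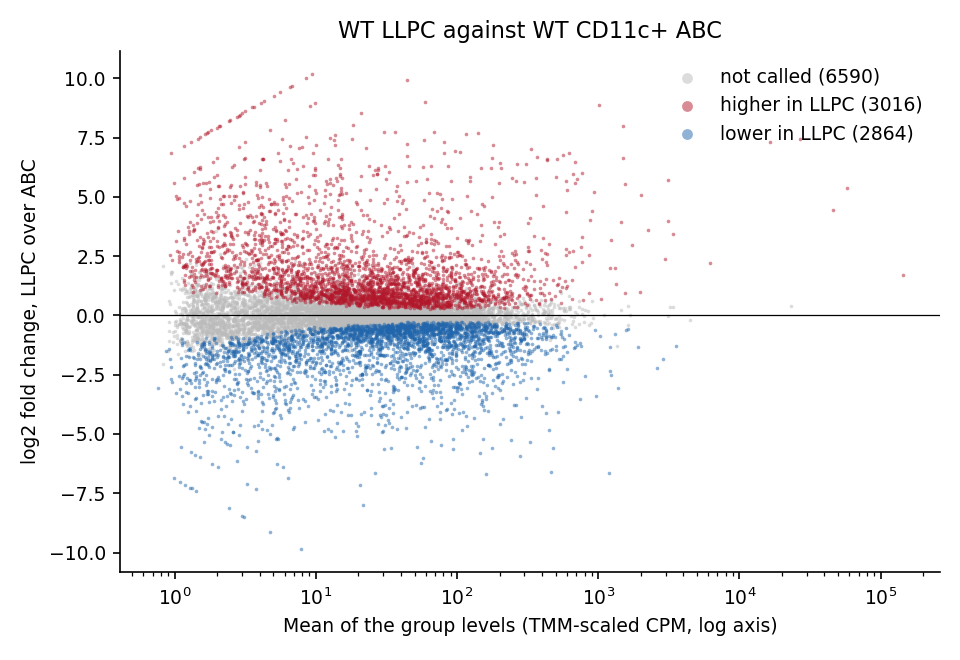
Each point is 1 of the 12470 tested features, with the mean of both group levels in TMM-scaled CPM (log axis) against the log2 fold change of WT LLPC over WT ABC. Red points are the 3016 called higher, blue the 2864 called lower and grey those not called. Rises reach 10.16 and falls -9.84, and the most abundant features lie mainly above 0.

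Rises had a wider range of sizes than falls. Among the higher features the median log2 difference was 1.35 (quartiles 0.82 and 2.41) and -1.15 among the lower (quartiles -1.95 and -0.70). At least 8-fold were 563 of the higher and 317 of the lower, and at least 32-fold were 226 and 60. Fitted folds of features without a count in 1 subset depend on the prior count, and 29 of the higher and 11 of the lower were of that kind. With these set to their lower bound from a floor of 3 counts over the group, the 32-fold counts were 224 and 55 and the medians were the same. Abundant features were called more often: 39.3% of features at 1 to 5 CPM, 49.7% at 20 to 100 CPM and 58.5% at 100 to 1000 CPM. At 1000 CPM or more, 25 of 49 features were higher and 13 lower in LLPC, beside 24.2% and 22.97% of all tested features. These bins used the mean of both group levels, so a high level in 1 subset alone could place a feature there. Nothing is therefore read from the direction of the calls in the top bin.

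How the called features were spread over libraries is a description, since the same libraries made the calls. On the scaled levels 1974 of the 3016 higher features and 2511 of the 2864 lower ones had no overlap between the 6 LLPC and 4 ABC libraries, against 15.9% and 21.4% of all tested features in those directions. Within the 4 animals that gave both subsets, 2698 of the higher and 2722 of the lower features had the called sign in every animal, where 3295 and 3394 of all 12470 tested features had that sign in every animal. Per animal the median log2 difference lay between 1.10 and 1.43 among the higher calls and between -1.23 and -1.02 among the lower. Stability of level was measured too: the 95% interval of the limma voom fit lay within 2-fold in either direction for 5692 of 12470 features (45.6%). Among the 5970 features that limma did not call, that interval reached 2-fold for 1954, so for these a 2-fold difference could not be told from none.

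Among the features that rose most, expression in ABC was close to nothing. The naming rule worked on plain CPM. It took the 15 largest folds among called features averaging 5 CPM or more on the higher side whose libraries did not overlap. There were 836 candidates for rises and 2586 for falls. Those counts depend on the scale: without overlap were 992 higher and 2802 lower calls on plain CPM, against 1974 and 2511 on scaled levels. Over all 12470 tested features, called or not, 992 lay higher and 4699 lower without overlap on plain CPM. On scaled levels these were 1985 and 2673. A lack of overlap on plain CPM was thus common among lower features whether they were called or not. The 15 rises had mean levels of 7.09 to 2023 CPM in LLPC and 0 to 4.62 CPM in ABC, and 14 were under 1 CPM in ABC, 10 of them without a single count. Their standard errors on the log2 scale were 0.604 to 1.89, and each stayed called with the animal as a block. CD23+ B cells were low as well, at 0.0243 to 3.39 CPM. Of the 12 tested in cKO high animals, 11 were called higher there, where 26.5% of all tested features were.

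The largest fold was that of MGP_BALBcJ_G0028064. It held 128, 73, 110, 128, 139 and 37 counts in LLPC replicates 1 to 6, or 19.1, 22.04, 18.6, 17.7, 30.1 and 5.79 CPM, and no count in any of the 4 ABC libraries. By the naming rule every LLPC library was above every ABC library, and LLPC replicate 6 was the lowest of its group. The mean of 18.9 ± 7.87 CPM (SD, n = 6) was at least 253-fold higher than the floor of 0.0745 CPM that 3 counts over the ABC group would give (edgeR adjusted p = 2.02e-05). In the cKO high animals it stood at 27.8 CPM in LLPC and 0.0527 CPM in ABC, and in WT CD23+ cells at 0.0620 CPM.

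Levels of the other rises varied widely between LLPC libraries. The most abundant of the 15, the 12th by fold, read 1398, 853, 4496, 2772, 2004 and 614 CPM in LLPC replicates 1 to 6 and 2.11, 1.72, 8.46 and 6.19 CPM in ABC replicates 1 to 4. Its log2 fold change was 8.86 (SE 0.865, edgeR adjusted p = 1.14e-05). A scarcer one, the 9th, read 38.3, 55.2, 368, 26.9, 88.1 and 133 CPM in LLPC and 0, 0.257, 0 and 0.509 CPM in ABC. LLPC replicate 3 was the highest for both, and no ABC library reached 1 CPM of the 9th.

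The 15 features that fell most had a count in every ABC library, which the naming rule required. On the scaled levels they had means of 4.81 to 2354 CPM in ABC and 0 to 22.4 CPM in LLPC. In LLPC 12 were under 1 CPM and 5 had no count. Standard errors were 0.343 to 1.02 on the log2 scale. All 15 were called lower in cKO high animals, where 24.8% of all tested features were, and all 15 also with the animal as a block in WT. Their level in CD23+ cells was mixed, from 0.0272 to 1480 CPM.

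MGP_BALBcJ_G0024413 had the largest fall. It read 7.81, 20.2, 23.2 and 11.4 CPM in ABC replicates 1 to 4 (85, 236, 137 and 135 counts), and no count in any of the 6 LLPC libraries. Against the floor of 0.0877 CPM for 3 counts over the LLPC group, LLPC was at least 179-fold lower (edgeR adjusted p = 7.5e-05). This feature was also near 0 in CD23+ cells (0.0862 CPM) and in cKO high LLPC (0 counts), and stood at 31.7 CPM in cKO high ABC, so among the groups measured here only the ABC groups held more than 1 CPM.

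Others among the falls were shared with CD23+ cells. The most abundant, the 12th by fold, read 2317, 3162, 2208 and 1728 CPM in ABC replicates 1 to 4, 51.1, 18.4, 22.8, 12.97, 7.16 and 21.8 CPM in LLPC replicates 1 to 6, and 1480 ± 155 CPM in CD23+ cells (SD, n = 6). Its log2 fold change was -6.65 (SE 0.493, edgeR adjusted p = 1.56e-06). The 14th read 895, 1095, 941 and 728 CPM in ABC and between 4.55 and 15.5 CPM in LLPC, with 421 ± 41.6 CPM in CD23+ cells. Neither had LLPC and ABC libraries that overlapped, as the naming rule required.

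**Figure D3:**
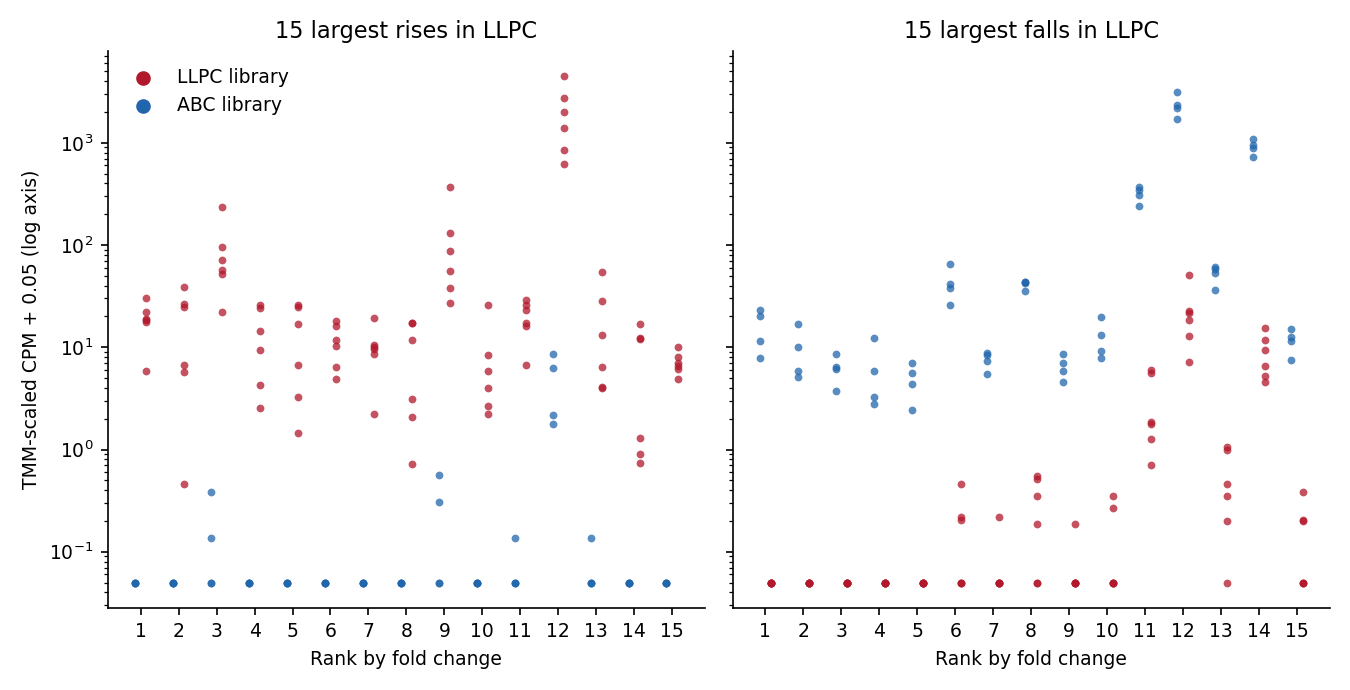
TMM-scaled CPM plus 0.05 (log axis) of the 15 largest rises and the 15 largest falls in LLPC by rank, with 1 point per library, red for the 6 LLPC and blue for the 4 ABC libraries. Points at 0.05 had no count. Red and blue do not overlap in any column, since the features were chosen for that. The LLPC points of the rises spread more than the ABC points of the falls.

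The 10 leading LLPC features, chosen by their level in LLPC, took 42.6% of LLPC counts and 12.2% of ABC counts. Of these 9 were called higher, beside 24.2% of all tested features, and nothing is read from that count because the choice favours higher LLPC levels. MGP_BALBcJ_G0007650 led in both subsets. It read 180545, 223155, 222704, 273642, 295436 and 108373 CPM in LLPC replicates 1 to 6, against 51305, 48334, 81097 and 95560 CPM in ABC replicates 1 to 4. The groups did not overlap, although LLPC replicate 6 came close to ABC replicate 4. Its log2 fold change was 1.71 (SE 0.495, edgeR adjusted p = 0.0139). That call was lost with the animal as a block (1.58, adjusted p = 0.106) and without ABC replicate 1 (1.59, adjusted p = 0.0572).

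Ranks 2 to 5 in LLPC had larger fold changes than this leading feature. The second averaged 112169 CPM in LLPC and 2799 CPM in ABC (log2 fold change 5.39, SE 0.664, edgeR adjusted p = 5.59e-05). The fourth read 57486, 106959, 20439, 29195, 94896 and 12059.6 CPM in LLPC and 467, 315, 147 and 363 CPM in ABC, with 10.9 CPM in CD23+ cells, so ABC lay between CD23+ cells and LLPC. The one leading feature without a call was the sixth, at 25936 ± 7975 CPM in LLPC and 20562.5 ± 3162 CPM in ABC.

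Of the 10 leading ABC features, 3 were lower and 2 higher in LLPC, and 5 were not called. Of all tested features 22.97% were lower and 24.2% higher. Nothing is read from these counts, since the features were chosen by their level in ABC. The most abundant feature that fell was MGP_BALBcJ_G0030305, at 5140, 4515, 5300 and 5558 CPM in ABC replicates 1 to 4 and 2134, 2418, 2047, 1781, 2022 and 1790 CPM in LLPC replicates 1 to 6. Every ABC library exceeded every LLPC library. The fall was 1.28 on the log2 scale (SE 0.198, edgeR adjusted p = 0.000286), and CD23+ cells were near ABC at 4255 ± 563 CPM.

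CD23+ B cells lay nearer ABC than LLPC for most, but not all, of the features that differed at least 2-fold. Of the 1951 features at least 2-fold higher in LLPC, the CD23+ level was nearer that of ABC for 1866 (95.6%), and for 1308 it was below ABC. Of the 1637 at least 2-fold lower, it was nearer ABC for 1316 (80.4%) and nearer LLPC for 321. This is a description on log2 levels, with no test.

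Cells of other animals showed the same contrast. Between cKO high LLPC and ABC, which share no library with the WT comparison, edgeR called 5942 of 11594 features (51.3%), 3071 higher (26.5%) and 2871 lower (24.8%). On plain totals the split there was 1076 higher and 7943 lower. Of the WT calls that were tested there, 2277 of 2712 higher features (84.0%) were also called higher, against 26.7% of all features tested in both. For the lower ones the figures were 2061 of 2726 (75.6%) against 24.5%. Fold changes across the 11480 shared features had a Pearson r of 0.90 and a Spearman rho of 0.83, given as a description since features share libraries.

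**Figure D4:**
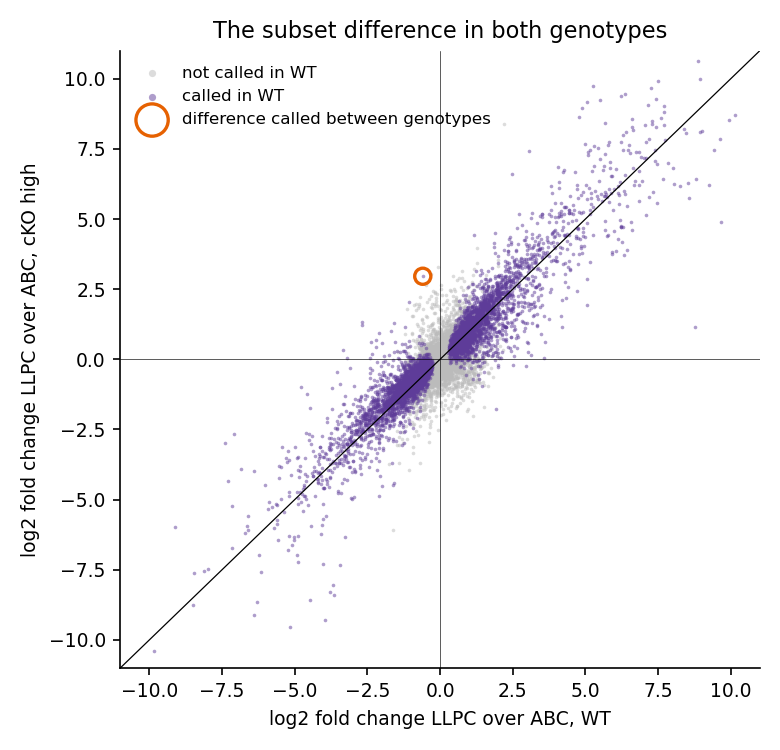
Log2 fold change of LLPC over ABC in WT (horizontal) against that in cKO high (vertical), 1 point for each of the 11480 features tested in both, purple where called in WT, with the line of equal change. Most points follow the line, and the orange ring marks MGP_BALBcJ_G0007527, at -0.60 in WT and 2.96 in cKO high.

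Calls of opposite sign were rare. Of the WT calls, 2 higher features were called lower in cKO high and 5 lower ones were called higher. With the animal as a block, 5 of these 7 lost their WT call (edgeR adjusted p from 0.0600 to 0.134). The test of the difference between the genotypes, over 13052 features of 16 libraries, called 1 of these 7 and no other feature (0.00766%), with 783 features at an unadjusted p under 0.05. DESeq2 called 18 features. In edgeR's test of the difference, the adjusted p of the other 6 of these 7 ran from 0.182 to 0.522.

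The feature called was MGP_BALBcJ_G0007527. It read 1224, 988, 1217, 1414, 1232 and 1243 CPM in WT LLPC replicates 1 to 6 and 1888, 2346, 1774 and 1685 CPM in WT ABC replicates 1 to 4. In cKO high animals it fell to 160, 104 and 51.4 CPM in LLPC and to 14.95, 12.4 and 16.9 CPM in ABC. The LLPC libraries lay below the ABC libraries in WT and above them in cKO high, with no overlap in either. The WT fold change of -0.60 (edgeR adjusted p = 0.0199) was -0.58 with the animal as a block, and its call was lost (adjusted p = 0.134). The difference of the log2 fold changes was 3.51 (SE 0.389, edgeR adjusted p = 0.00118), and with the animal as a block it was 3.38 with an adjusted p of 0.302 and no feature was called.

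Features chosen in the cKO high animals alone gave a measure of the contrast between LLPC and ABC that did not use the WT values. At 16-fold and 20 CPM or more, 142 features were higher in cKO high LLPC (LLPC set) and 75 in cKO high ABC (ABC set). In WT all 142 were called higher in LLPC, their median log2 fold change being 5.33, and 74 of the 74 tested were called lower, with a median of -4.68, against 0.03 over all features. The LLPC set took 24.99%, 33.5%, 29.1%, 31.9%, 27.6% and 14.1% of counts in WT LLPC replicates 1 to 6 and 1.04%, 0.544%, 2.03% and 1.06% in WT ABC replicates 1 to 4. Conversely, the ABC set took 1.74%, 2.13%, 1.68% and 1.55% in WT ABC and 0.0640%, 0.0244%, 0.0351%, 0.0226%, 0.0174% and 0.0646% in WT LLPC. Replicate 6 was thus lowest in the LLPC set, and with replicate 1 highest in the ABC set among LLPC libraries. Within LLPC the ABC set amounted to 0.978% to 3.64% of its mean share in ABC. What part carried-over cells or free RNA have in these low shares was not tested. WT CD23+ libraries held the ABC set at 1.69% to 1.75% of counts, within the range of WT ABC, and the LLPC set at 0.506% to 0.600%. The ABC set thus separated ABC from LLPC but not from CD23+ cells.

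**Figure D5:**
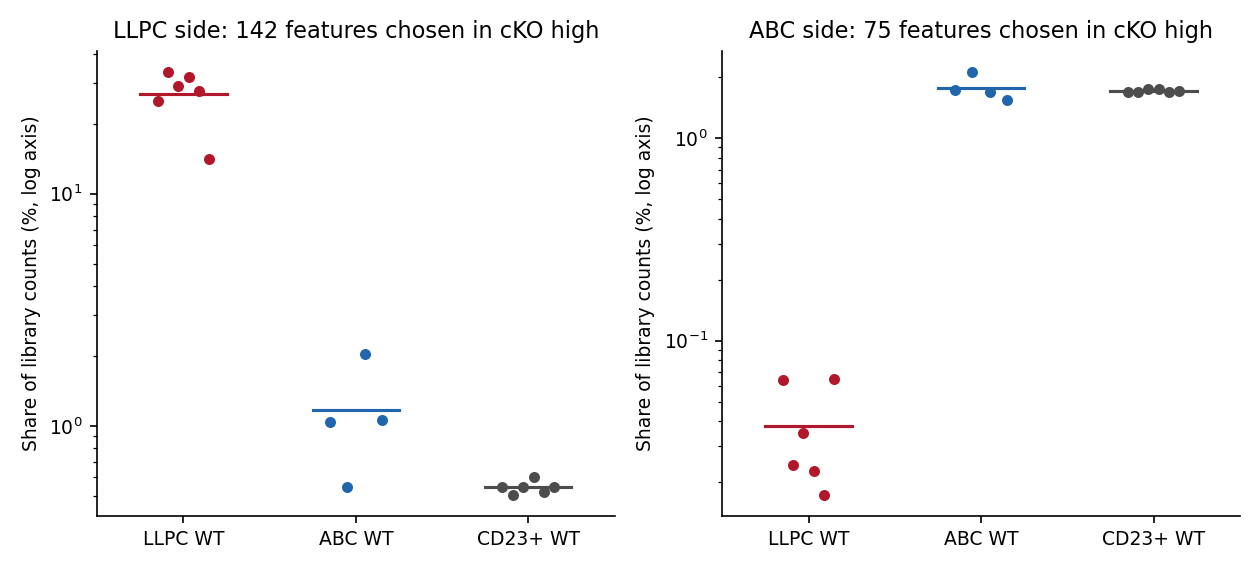
Share of library counts (%, log axis) of the 142 features higher in LLPC and the 75 higher in ABC in cKO high animals. Each point is 1 WT library, and the line is the group mean. The LLPC set lies between 14.1% and 33.5% in LLPC and at 2.03% or less in ABC. The ABC set lies at 1.55% or more in ABC and at 0.0646% or less in LLPC. In CD23+ cells the ABC set lies at 1.69% to 1.75%, within the range of ABC, and the LLPC set at 0.506% to 0.600%.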

How the data were processed

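The authors' tools, per the submitters' processing notes, were FastQC, STAR 2.7.1a and featureCounts. The deposited values are raw counts per feature, 1 table per library, from a Takara kit for low-input total RNA per the labels' protocols. The prefix MGP_BALBcJ of the printed feature IDs points to an annotation of the BALB/cJ strain. It does not give the strain of the animals. Genome build, strandedness and use of molecular identifiers were not stated in the sources used here, so overlapping or antisense features and near-identical copies are uncertain. Libraries were compared as labelled biological replicates. Counts within every replicate pair differed by more than sampling noise. Tables of 6 CD23+ cKO libraries were not used.

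Differences were computed with R 4.3.3 and edgeR 4.0.16 (filterByExpr, TMM, robust quasi-likelihood test, two-sided, Benjamini-Hochberg adjustment over all features tested, called under 0.05) on the 10 WT libraries, on the 6 cKO high libraries, and on all 16 for the difference between genotypes. Printed levels are CPM on TMM-scaled totals of the 22 libraries used. The rule for single features used plain CPM: 15 features per direction with the largest fold among called features averaging 5 CPM or more on the higher side without overlap, and the 10 leading features of each group. Members, lists and tests were chosen with earlier results of these data known. DESeq2 1.42.0 and limma 3.58.1 (voom) were alternatives. The pairing comes from the animal number: deviations of the same animal's LLPC and ABC libraries correlated across features at 0.01 to 0.22 (4 pairs), against -0.18 to 0.15 (median -0.03) over 20 pairs of different animals, a range that holds 3 of the 4. The procedure was tested on simulated data with 50 changed features per fold size, at 5 CPM or more and with as many rises as falls. In the WT comparison over 12470 features edgeR recovered 8% of changes of 1.5-fold, 38% of 2-fold, 82% of 4-fold and 100% of 8-fold. In the cKO high comparison over 11594 features it recovered 24%, 66%, 92% and 96%. The real WT comparison called 47.2% of features, and the simulation held no shift in composition between subsets. The recovered shares therefore hold for the simulated setting only.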

Additional observations from a re-analysis of the deposited data

Results flagged for a closer look

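Gaps between 1 library and the rest of its group were checked with Dixon's criterion in 112 groups of values, 100 of named features and 12 of library measures. The criterion was exceeded in 9, each in a named feature. A rate of 1 in 20 gives 5.6 over all of them, which is nominal only. Groups without a count in any library cannot be flagged, and the criterion does not suit a single count beside libraries without one. LLPC replicate 6 read 5.79 CPM of MGP_BALBcJ_G0028064, below the other LLPC libraries. ABC replicate 4 stood out in 5: it alone had a count of the 11th and of the 13th largest rise (0.0848 CPM each), it was lowest at 35.1 CPM for the 8th largest fall, highest at 807 CPM for the 10th leading LLPC feature, and highest at 6857 CPM for the 8th leading ABC feature. ABC replicate 2 was lowest at 4071 CPM for the 5th leading ABC feature. LLPC replicate 3 alone had a count of the 7th largest fall (0.169 CPM), and LLPC replicate 4 alone of the 9th (0.138 CPM). The values at 0.0848, 0.138 and 0.169 CPM each rest on a single count.

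The subset difference of MGP_BALBcJ_G0007527 differed between genotypes by 3.51 on the log2 scale in edgeR's test of the difference. That call was lost with the animal as a block, where 0 features were called. Its mean level was 1220 CPM in LLPC and 1923 CPM in ABC in WT, but 105 and 14.8 CPM in cKO high.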

How the results depend on the processing

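Calls and signs were checked for the 47 named features. Of their 1107 values under the alternatives, 1100 kept the side of the threshold. These features were chosen by fold or level in the same libraries, so that count does not describe the other features. No feature called in either fit changed sign, and sign changes of features called in neither were not counted. Of all 5880 WT calls, 4384 were called with the same sign with the animal as a block, and 4197 on plain totals. In the WT comparison a test against 2-fold (glmTreat) called 2009, 1082 higher and 927 lower, and plain totals gave 1333 higher (1038 at least 2-fold) and 5928 lower (3856). In cKO high, glmTreat called 1932 (1117 and 815), and plain totals 9019 (1076 and 7943, at least 2-fold 773 and 5633). Leaving out 1 library gave 5086 to 6184 calls in WT (2412 to 3051 higher, 2455 to 3133 lower) and 5042 to 5876 in cKO high. With the animal as a replicate block, 4472 features were called in WT (2309 higher) and 5805 in cKO high. A separate block fit on the 4 paired animals alone called 4375, 1942 higher. For the difference between genotypes the block called 0 features, DESeq2 18, limma 2, no filter 5, leaving out 1 library 1 to 2 (2 without ABC WT replicate 4, ABC cKO high replicate 2 or LLPC WT replicate 4), and leaving out LLPC replicates 1, 3 and 6 together, chosen after seeing the data, 4. The same removal left 6003 WT calls. The share of the 10 leading features differed by 26.6 to 31.2 points without 1 library. The number of features at a common depth differed by -561.9 to -298.3 without 1 library, and by -710.9 for at least 5 counts. The medians of the sets chosen in cKO high were -5.32 and 4.58 on plain totals. Plain totals leave out the TMM factors, which ran from 0.693 to 1.11 in WT LLPC and from 1.29 to 1.38 in WT ABC, and the cause of the other shifts was not tested. Depth limits scarce features: the median standard error (log2) was 0.49 at 1 to 5 CPM and 0.18 at 20 to 100 CPM.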

Other observations

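The feature IDs end in a running number, and the 172 with numbers up to 200, singled out after their values were seen, held much of the LLPC excess. Of these, 134 had a count and 105 were tested: edgeR called 102 higher and 1 lower in WT LLPC, against 24.2% higher over all features tested. Their median log2 fold change was 5.67 (quartiles 4.08 and 6.60), and 65 of the 226 features at least 32-fold higher were among them, as were 6 of the 10 leading LLPC features and 3 of the 15 largest rises. None of the 15 largest falls was.

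They took 22.4%, 30.1%, 27.7%, 29.7%, 25.04% and 12.7% of counts in LLPC replicates 1 to 6 and 1.13%, 0.631%, 2.09% and 1.30% in ABC replicates 1 to 4. LLPC replicate 6 was the lowest of its group, and the highest ABC library was replicate 3. The share was 0.692% ± 0.0405 in WT CD23+ cells (SD, n = 6), 29% ± 2.25 in cKO high LLPC (n = 3) and 1.20% ± 0.278 in cKO high ABC (n = 3). In cKO high animals 88 of the 101 tested were called higher, beside 26.5% of all features tested there. These features varied more between LLPC libraries than most, with a median ratio of highest to lowest library of 5.04 against 2.17 over all tested. Without them the 10 leading features of the rest still took 32.2% ± 6.27 of the remaining LLPC counts and 15.04% ± 2.78 of the ABC counts.

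In the other 217 blocks of 100 consecutive ID numbers with at least 20 tested features, the share called higher ran from 0% to 61.1%, with a median of 24.2%.

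Few features combined clear counts in 1 subset with none in the other. With at least 10 counts in every LLPC library and none in any ABC library there were 11, and in the reverse direction 6.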
